A study of Arabidopsis arenosa x Arabidopsis thaliana and Arabidopsis thaliana and Arabidopsis arenosa with 5 samples.

Results

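The 6 genes that encode pathogenesis-related proteins or close relatives of these were followed in leaves of 5 tetraploid Arabidopsis groups. They are PR1 (AT2G14610), PRB1 (AT2G14580), PR2 (AT3G57260), BG3 (AT3G57240), BG1 (AT3G57270) and PR5 (AT1G75040). Members were chosen by locus identifier. All 6 stood among the 32308 genes kept from the tables of the parents, and 4 of them (PR1, PR2, BG3 and PR5) among the genes kept for the allotetraploids, 11008 in the F1, 10887 in F8 and 10842 in A. suecica. PRB1 and BG1 were not listed for the allotetraploids. No allele value in the F1 table was 0 (the lowest was 0.0113 RPKM), and the lowest totals in the tables of F8 and A. suecica were just above 2 RPKM. Of 863 genes with an A. arenosa mean of at least 100 RPKM, 57 were, like PRB1, in none of these tables.

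The parental groups were autotetraploid A. thaliana (Landsberg erecta) at 3 to 4 weeks and autotetraploid A. arenosa (Care-1) at 6 to 7 weeks. The allotetraploids, which combine genomes of both species, were a resynthesized F1, an F8 and the natural species A. suecica, all at 6 to 7 weeks. Plant age and genotype therefore cannot be told apart where A. thaliana is compared. RNA came from rosette leaves before bolting, from plants kept in 16 h of light at 22 °C and 8 h of dark at 20 °C. Each parent and the F1 had 3 replicate columns, whereas F8 had 1 library and A. suecica also 1. Whether the columns of a group are separate plants is not stated in the labels, so p-values measure only the spread between columns, which may be technical.

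PR1, PR2 and PR5 are the standard transcript markers of the salicylic acid branch of plant immunity. Salicylic acid acts through NPR1, and the proteins made are secreted or vacuolar. PR1 is a small secreted protein of the CAP family, PR2 (RefSeq symbol BGL2) a beta-1,3-glucanase that cuts glucans of fungal walls and callose, and PR5 a thaumatin-like protein. PRB1 is the basic relative of PR1, annotated in A. thaliana as responsive to ethylene and methyl jasmonate and as repressed by salicylic acid. BG3 and BG1 are glucanases of glycosyl hydrolase family 17, in a cluster with PR2.

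In TAIR10.1, PR1 lies on chromosome 2 at 6241640 to 6242541 and PRB1 at 6225351 to 6226227, each with 1 exon on the minus strand and 15412 bases apart. On chromosome 3, BG3 (21181642 to 21183144, 2 exons), PR2 (21188397 to 21189967, 2 exons) and BG1 (21191237 to 21193189, 3 exons) follow each other on the minus strand. The gap from BG3 to PR2 is 5252 bases and that from PR2 to BG1 is 1269 bases. PR5 lies on chromosome 1 at 28177670 to 28179022 (plus strand, 2 exons).

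Because relatives could share reads, the A. thaliana reference sequences of the close pairs were compared. The coding sequences of PR1 and PRB1, 486 bases each, were identical at 83.5% of aligned bases. PR2 and BG3 were identical at 75.0%, PR2 and BG1 at 65.5% and BG3 and BG1 at 65.3%. Reads were 60 to 83 bases long, and none of these pairs shared an identical stretch of 60 bases in their transcripts. The longest identical runs were 23 bases for PR1 with PRB1 and 23 bases for PR2 with BG3. The most alike 60-base windows of the pairs PR1 with PRB1 and PR2 with BG3 are shown because these pairs carry the differences described below. They lie in coding sequence, and capitals mark the bases that differ, 4 between PR1 and PRB1 and 6 between PR2 and BG3.
PR1, transcript bases 482 to 541: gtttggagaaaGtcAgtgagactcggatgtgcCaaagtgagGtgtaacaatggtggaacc
PRB1, transcript bases 409 to 468: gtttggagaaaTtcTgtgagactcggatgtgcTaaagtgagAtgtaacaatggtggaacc
PR2, transcript bases 597 to 656: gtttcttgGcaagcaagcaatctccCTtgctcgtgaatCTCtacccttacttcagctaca
BG3, transcript bases 662 to 721: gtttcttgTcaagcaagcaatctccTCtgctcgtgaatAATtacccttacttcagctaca
The mismatches allowed when the authors placed reads are not stated in the labels, and whether reads moved between relatives was not tested. The reference for the reads was also of A. thaliana. The sequences compared here therefore do not show to which relative A. arenosa reads were assigned.

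The values are RPKM, reads divided by transcript length and by the mapped reads of the library, so levels can be set side by side between genes. Depth per library is unknown. Leaf markers were high in all libraries, but unevenly. The summed RPKM of 7 photosynthesis genes was 7542, 24739 and 60344 in A. thaliana replicates 1, 2 and 3, and 6725, 20494 and 33971 in the F1 replicates. It lay between 26294 and 34716 in A. arenosa, and was 45042 in F8 and 37446 in A. suecica. None of 6 flower markers exceeded 1 RPKM in A. thaliana, and in A. arenosa SEP2 did (8.29 to 17.7 RPKM), with SEP3 in 1 replicate. Of 5 root markers, EXPA7, EXPA18 and COBL9 (listed by RefSeq as SHV2) were at 0 in every parental replicate, and PYK10 reached 15.5 RPKM in A. thaliana replicate 3. Ribosomal RNA took 59.6% of the summed RPKM of A. arenosa replicate 1 and 0.231% to 2.56% of the other parental libraries.

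**Figure D1:**
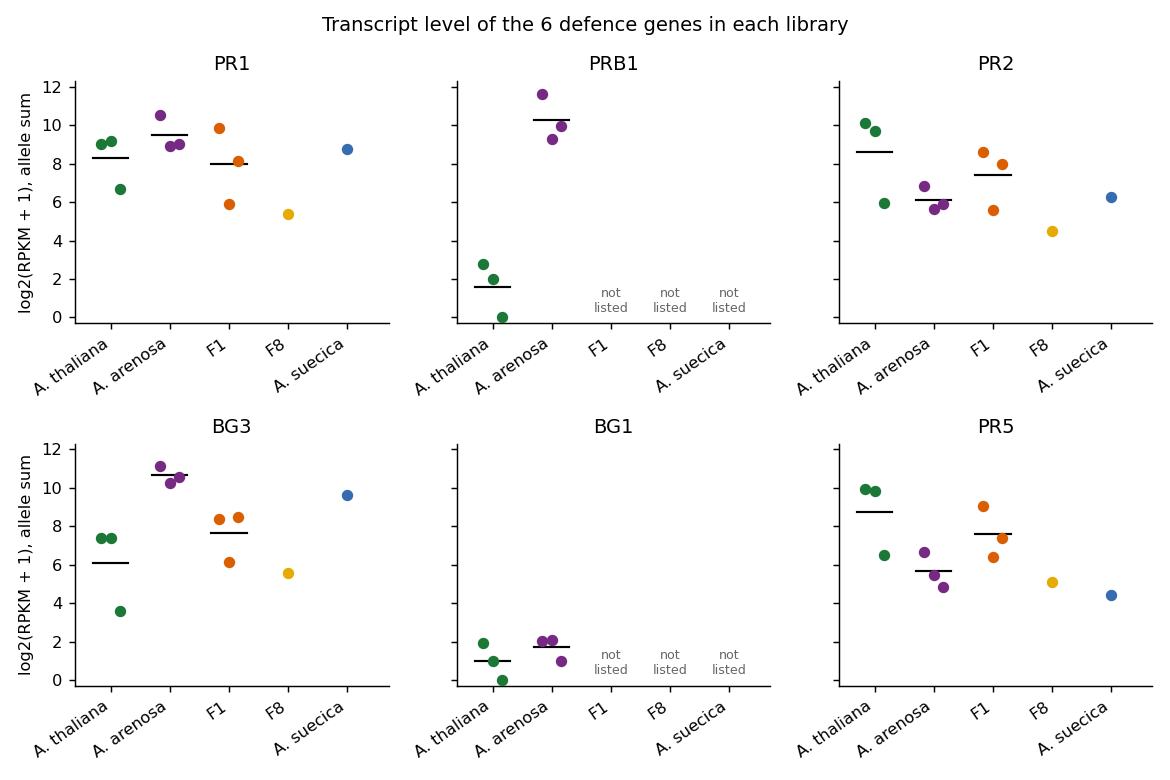
Transcript level of each gene, as log2(RPKM + 1), in every library of the 5 groups; points are libraries, with replicates 1 to 3 from left to right, and bars are means over 3 replicate columns. PRB1 and BG3 separate the parents in every replicate, whereas PR2 and PR5 were high in A. thaliana replicates 1 and 2 but not in replicate 3.

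The comparison of the parents showed PRB1 and BG3 far higher in A. arenosa. PR2 and PR5 tended the other way without passing the test, and PR1 was high in both species. A. arenosa values rest on reads placed on an A. thaliana reference. The part of this placement in the parental differences was not tested. PRB1, the basic PR1 relative, was measured at 5.94, 3.05 and 0 RPKM in replicates 1, 2 and 3 of A. thaliana, and at 3172, 624 and 982 RPKM in those of A. arenosa. The groups did not overlap, and PRB1 ranked 21, 89 and 63 among all genes in A. arenosa. Its difference on the log2(RPKM + 1) scale was 8.68 (SE 0.86, limma, Benjamini-Hochberg adjusted p = 0.000992), a scale on which the change of a gene near 0 is understated. BG3, the glucanase gene at the edge of the cluster, had 165, 165 and 10.9 RPKM in A. thaliana and 2275, 1210 and 1526 RPKM in A. arenosa, again without overlap. The BG3 difference was 4.55 (SE 1.03, limma, adjusted p = 0.0261). It no longer passed when any of the A. arenosa replicates was left out (adjusted p = 0.0713, 0.0836 and 0.0918 without replicates 1, 2 and 3).

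For the glucanase gene PR2 the values were 1095, 833 and 61.7 RPKM in A. thaliana and 112, 49.0 and 59.7 RPKM in A. arenosa. The groups overlapped through A. thaliana replicate 3, and the difference of -2.46 (SE 1.07) did not pass (limma, adjusted p = 0.163). PR5, the thaumatin-like gene, had 981, 923 and 89.7 RPKM in A. thaliana and 100, 43.9 and 28.2 RPKM in A. arenosa. Here too replicate 3 of A. thaliana lay within the A. arenosa range, and the difference of -3.09 (SE 0.99) had an adjusted p of 0.0765 (limma). Without A. thaliana replicate 3, PR2 (-3.77, adjusted p = 0.00224) and PR5 (-4.22, adjusted p = 0.00343) were both lower in A. arenosa by the limma test. In that setting 3052 of all genes passed in either direction, against 1895 with all replicates. The salicylic acid marker PR1 had 523, 587 and 102 RPKM in A. thaliana and 1469, 476 and 524 RPKM in A. arenosa. Its groups overlapped, with a difference of 1.18 (SE 0.81, limma, adjusted p = 0.350).

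BG1, the last gene of the glucanase cluster, was low throughout, with 2.77, 1.01 and 0 RPKM in A. thaliana and 3.15, 3.22 and 0.962 RPKM in A. arenosa. It stayed below the filter of 5 RPKM in the larger parent and was not tested. Of the 5 members tested, 2 passed the limma test at an adjusted p below 0.05 and at least 2-fold, both higher in A. arenosa. Over all 12741 genes tested, 14.9% passed in either direction, 10.7% were higher and 4.21% lower in A. arenosa. The median log2 difference was 1.18 over the members tested and 0.31 over all genes. The split of all calls, 1359 higher and 536 lower, became 912 and 772 when libraries were scaled by their median ratio, which moved the median of all genes to 0.01. No member changed its direction under that scaling.

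A. thaliana replicate 3 had the lowest value of all A. thaliana replicates for all 6 genes. How many of all genes had their lowest or highest value in a given replicate was not counted in any group. The fold between the highest and the lowest A. thaliana replicate was 5.73 for PR1, 17.7 for PR2, 15.2 for BG3 and 10.9 for PR5. On the log2(RPKM + 1) scale, the range of PR2 exceeded that of 99.5% of the 10736 genes with a mean of at least 5 RPKM, and that of PR1 exceeded 94.8%. In the F1 the ranges of PR1, PR2, BG3 and PR5 exceeded those of 99.9%, 99.6%, 98.8% and 99.3% of 10222 genes. In A. arenosa those of PR1, PRB1, PR2, BG3 and PR5 exceeded 94.05%, 97.68%, 86.51%, 76.65% and 95.43% of 11703 genes. The highest A. arenosa value of each of these genes was in replicate 1, the library with the most ribosomal RNA. A. thaliana replicate 3 also had the highest leaf-marker sum of its group. In the F1 the lowest totals of all 4 genes were in replicate 2, whose leaf-marker sum was intermediate, and the highest of PR1, PR2 and PR5 in replicate 1, whose sum was the lowest. The part of the leaf-marker level in these values was not tested.

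Ratios between members within a library are little affected by its scale. They were chosen after the values were seen. The log2 ratio of BG3 over PR2, taken as log2(RPKM + 1), was -2.73, -2.33 and -2.40 in the A. thaliana replicates and 4.34, 4.60 and 4.65 in those of A. arenosa. Neighbouring glucanase genes therefore stood in opposite order in the species, and replicates of a species lay close together. PR1 over PR5 was -0.91, -0.65 and 0.19 in A. thaliana and 3.86, 3.41 and 4.17 in A. arenosa, without overlap. By contrast, PR2 over PR5 was 0.16, -0.15 and -0.53 in A. thaliana and 0.15, 0.15 and 1.06 in A. arenosa, so these ranges overlapped. PRB1 over PR1 was -6.24, -7.18 and -6.69 in A. thaliana, where the last value rests on a PRB1 listed at 0, and 1.11, 0.39 and 0.91 in A. arenosa.

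The species means differed by 7.01 for BG3 over PR2, by 7.50 for PRB1 over PR1, by 4.27 for PR1 over PR5, by 3.64 for PR1 over PR2 and by 0.63 for PR2 over PR5. A two-sided exact permutation test with n = 3 a group gave p = 0.1 for the first 4 of these, the smallest it can give (Benjamini-Hochberg adjusted 0.125 over the 5 ratios), and p = 0.3 for PR2 over PR5. With this floor no ratio could pass, and the adjustment does not cover their choice after the values were seen.

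**Figure D2:**
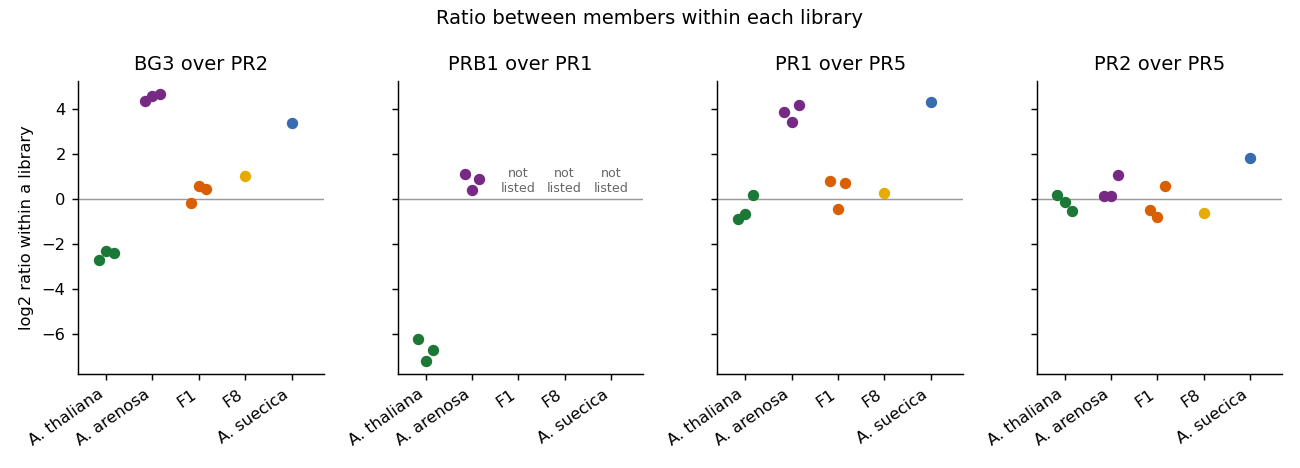
Log2 ratio between members within each library, from log2(RPKM + 1) values summed over alleles; points are libraries, with replicates 1 to 3 from left to right, and PRB1 is not listed in the allotetraploids. BG3 over PR2 lay between -2.73 and -2.33 in A. thaliana and between 4.34 and 4.65 in A. arenosa, with the F1, F8 and A. suecica between.

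The windows of 250 bases before the annotated start of PR2 and BG3 are shown because these neighbours stood in opposite order in the species. The sequences are RefSeq TAIR10.1, from the A. thaliana reference accession Columbia, and are of neither parent. Capitals mark stretches of at least 10 identical bases shared by both windows.
PR2, chr3:21189968-21190217, minus strand: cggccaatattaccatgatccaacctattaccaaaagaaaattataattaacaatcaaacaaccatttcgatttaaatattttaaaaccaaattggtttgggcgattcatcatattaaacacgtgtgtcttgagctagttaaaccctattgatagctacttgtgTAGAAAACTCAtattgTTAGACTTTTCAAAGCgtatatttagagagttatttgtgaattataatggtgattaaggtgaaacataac
BG3, chr3:21183145-21183394, minus strand: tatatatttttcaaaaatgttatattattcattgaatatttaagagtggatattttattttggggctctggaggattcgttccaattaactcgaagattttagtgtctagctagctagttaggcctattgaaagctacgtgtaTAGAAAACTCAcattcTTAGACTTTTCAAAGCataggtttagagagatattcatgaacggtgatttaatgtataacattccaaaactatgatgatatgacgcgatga
The windows shared 2 such stretches, the longer of 16 bases. Motifs known from defence promoters were also searched on both strands. TGACG, the core bound by TGA factors, had 1 match before BG3 and 0 before PR2, and 18.6% of 27443 nuclear promoter windows held it. TTGACC and TTGACT, forms of the W-box bound by WRKY factors, had no match in either window and stood in 12.2% and 19.1% of all windows. The motif AGCCGCC also had no match in either window, and 0.587% of all windows held it. The G-box CACGTG had 1 match before PR2, and 6.49% of windows held it. A match is a description of these letters and not a site.

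**Figure D3:**
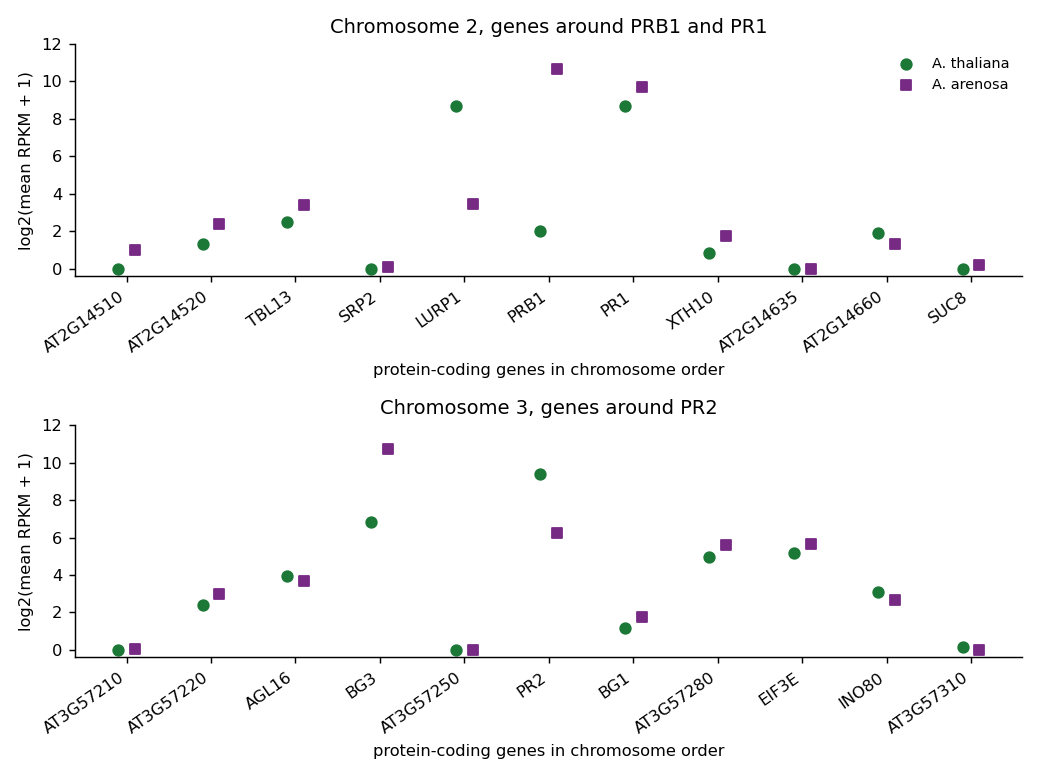
Mean level in each parent, as log2(mean RPKM + 1) over 3 replicates, of protein-coding genes in chromosome order around PRB1 and PR1 and around PR2. LURP1 and PRB1 lie side by side with called differences of opposite sign. BG3 and PR2 lie on either side of AT3G57250, listed at 0 in both parents; the BG3 difference passed and the PR2 difference did not.

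Genes beside the members were compared in the same way. Taking 5 protein-coding genes on each side of each member gave 31 neighbours, of which 13 were tested between the parents. Of these, 1 was higher and 1 lower in A. arenosa, against 10.7% and 4.21% of all genes tested. Their median log2 difference was 0.35, against 0.31 over all genes. LURP1, a gene needed for resistance to downy mildew, lies 9418 bases from PRB1. It had a mean of 409 ± 271 RPKM (SD, n = 3) in A. thaliana and 10.0 ± 8.19 RPKM in A. arenosa, a log2 difference of -5.21 (limma, adjusted p = 0.0105), opposite to PRB1. BZR1, a brassinosteroid-responsive transcription factor near PR5, was higher in A. arenosa by 1.05 (limma, adjusted p = 0.0366). Between BG3 and PR2, AT3G57250 was at 0 in both parents' means. AT3G57280 and EIF3E, on the far side of BG1, had log2 differences of 0.69 and 0.49 that did not pass.

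In the F1, where both genomes share a nucleus, PR2 and PR5 transcripts came mainly from the A. thaliana allele and BG3 transcripts from the A. arenosa allele. The A. thaliana allele of PR2 had 384, 47.0 and 254 RPKM in replicates 1, 2 and 3, and the A. arenosa allele 0.582, 0.240 and 0.105 RPKM. The A. arenosa share of PR2 was therefore 0.152%, 0.508% and 0.0411%, although the A. arenosa parent itself had 49.0 to 112 RPKM. On the log2 scale the ratio of the A. arenosa to the A. thaliana allele was -7.02 (SE 0.52), which passed in limma (adjusted p = 0.00216). The A. arenosa allele lay below the pseudocount of 1 RPKM, so the size depends on it, at -8.84 with 0.1 RPKM and -5.03 with 5 RPKM, and the call held with both. For BG3 the A. thaliana allele had 39.2, 7.65 and 7.09 RPKM and the A. arenosa allele 297, 63.1 and 345 RPKM. Its A. arenosa share was 88.4%, 89.2% and 98.0%, and the log2 ratio was 3.73 (SE 0.50) with an adjusted p of 0.00553 in limma.

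PR5 had 319, 71.9 and 141 RPKM from the A. thaliana allele and 215, 10.4 and 27.9 RPKM from the A. arenosa allele. The A. thaliana allele was higher in all replicates, by less in replicate 1, where the A. arenosa share was 40.2% against 12.7% and 16.5% in the others. Its log2 ratio was -1.85 (SE 0.40, limma, adjusted p = 0.0199), and without F1 replicate 2 it was -1.44 with an adjusted p of 0.0597. PR1 had no steady allele order, with 607, 16.9 and 248 RPKM from the A. thaliana allele and 321, 42.7 and 30.1 RPKM from the A. arenosa allele. The A. arenosa share of PR1 was 34.6%, 71.6% and 10.8%, and the log2 ratio of -0.88 (SE 0.73) did not pass (limma, adjusted p = 0.390). It was 0.19 without F1 replicate 3, and -1.96 with an adjusted p of 0.0322 without replicate 2.

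Of the 4 listed members, 3 passed the limma test on the alleles, 1 with a higher A. arenosa and 2 with a higher A. thaliana allele. Of all 10222 genes 12.9% passed, 8.47% with a higher A. arenosa and 4.42% with a higher A. thaliana allele. The median log2 ratio was -1.36 over the members and 0.05 over all genes. The division of reads between alleles is not described in the labels, and its part in these ratios was not tested.

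**Figure D4:**
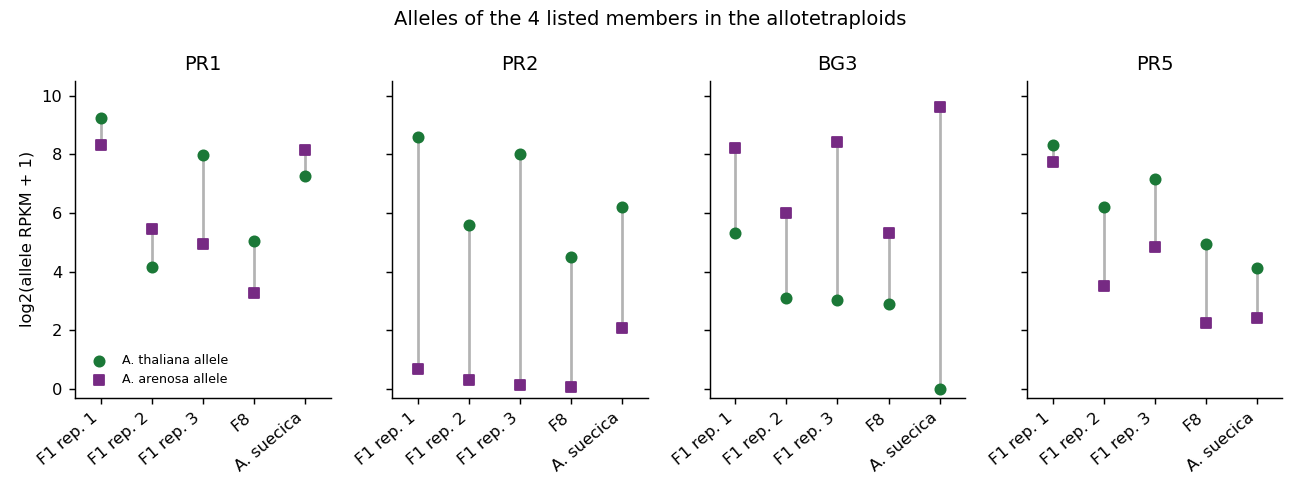
Level of the A. thaliana allele (circles) and of the A. arenosa allele (squares), as log2(allele RPKM + 1), for the 4 listed genes in each F1 replicate, F8 and A. suecica; grey lines join the alleles of a library. The PR2 pair is split toward A. thaliana and the BG3 pair toward A. arenosa in each library, and the PR1 pair changes order.

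F8 and A. suecica, with 1 library each and thus no test, kept the order of the PR2, BG3 and PR5 alleles. In F8 the A. thaliana and A. arenosa alleles had 21.6 and 0.0467 RPKM for PR2, 6.52 and 39.3 RPKM for BG3, and 29.7 and 3.73 RPKM for PR5. In A. suecica they had 72.3 and 3.20 RPKM for PR2 and 16.5 and 4.35 RPKM for PR5. The A. thaliana allele of BG3 was listed at 0 in A. suecica, with 784 RPKM from the A. arenosa allele. PR1 differed in order, with 31.7 RPKM from the A. thaliana and 8.62 RPKM from the A. arenosa allele in F8, and 152 and 283 RPKM in A. suecica. The A. arenosa share of PR1 was thus 21.4% in F8 and 65.1% in A. suecica, both within the range of the F1 replicates.

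An allele difference of at least 2-fold was seen for 4 of 4 members in F8, with 1 A. arenosa and 3 A. thaliana alleles higher. Of all 9579 genes compared in F8, 19.1% differed by that much, 11.4% toward A. arenosa and 7.66% toward A. thaliana. In A. suecica 3 of 4 members did, BG3 toward A. arenosa and PR2 and PR5 toward A. thaliana, against 24.1% of 9915 genes, 12.8% and 11.3% in these directions. In A. suecica the A. arenosa share of PR2 was 4.24%, above the 0.0411% to 0.508% of the F1 replicates and the 0.215% of F8.

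**Figure D5:**
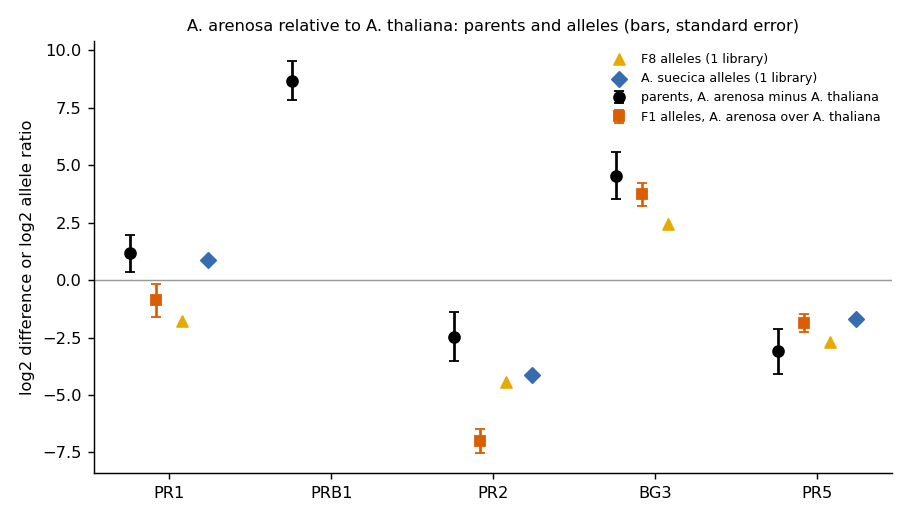
Log2 difference between the parents (A. arenosa minus A. thaliana) and log2 allele ratio (A. arenosa over A. thaliana) in the F1, F8 and A. suecica for each tested gene; bars are standard errors over 3 replicate columns, and F8 and A. suecica have 1 library each. The A. suecica ratio of BG3 is not drawn because its A. thaliana allele was listed at 0; PR2 and PR5 lie below 0 and BG3 above 0 in all contrasts drawn.

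Setting the parental difference against the F1 allele ratio asks how much of a difference travels with the allele (cis) and how much acts on both alleles (trans). The trans term, what remains of the parental difference once the F1 allele ratio is subtracted, was 4.55 (SE 1.26) for PR2, 2.06 (SE 1.26) for PR1, 0.82 (SE 1.22) for BG3 and -1.25 (SE 1.11) for PR5. None of the 4 passed in limma (adjusted p = 0.164, 0.464, 0.783 and 0.625), and 1, PR2, had an unadjusted p below 0.05. Over all 9856 genes 0.162% passed, 0.0507% above and 0.112% below 0. The PR2 term depends on the pseudocount, at 6.37 with 0.1 RPKM and 2.62 with 5 RPKM (limma, adjusted p = 0.0991 and 0.352). Without A. thaliana replicate 3 it was 3.24 with an adjusted p of 0.0473 in limma. In that setting 495 of all genes passed, against 16 with all replicates. With the replicate number as a block, again none of the 4 members passed, and 3 of all genes did in place of 16. This comparison uses the same parental and F1 libraries as the ones above.

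Totals of the F1, the sum of both alleles, were 928, 59.6 and 278 RPKM for PR1 and 384, 47.3 and 254 RPKM for PR2 in replicates 1, 2 and 3. For BG3 they were 337, 70.7 and 352 RPKM, and for PR5 534, 82.4 and 169 RPKM. Replicate 2 was the lowest for each gene, and the totals of PR1, PR2 and PR5 overlapped the ranges of both parents. BG3 totals lay below every A. arenosa replicate and overlapped those of A. thaliana. For the mean of the parents, each species entered as its mean log2(RPKM + 1), turned back from the log scale. Where replicates spread, this lies below the arithmetic mean of the species. Against the mean of the parents, the log2 difference was -2.04 (SE 0.99) for BG3, -1.05 (SE 0.90) for PR1, -0.44 (SE 1.01) for PR2 and -0.31 (SE 0.93) for PR5. None of the 4 passed in limma (adjusted p = 0.334, 0.585, 0.858 and 0.897), none had an unadjusted p below 0.05, and 0.0913% of 9856 genes passed, all of them higher in the F1. With the replicate number as a block, 255 genes passed in place of 9 and none of the 4 members did, BG3 having an adjusted p of 0.0576. Without F1 replicate 2 the differences were -0.02 for PR1, 0.46 for PR2, -1.29 for BG3 and 0.31 for PR5.

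F8 had low totals of all 4 genes. PR1 had 40.3 RPKM, PR2 21.7 RPKM, BG3 45.8 RPKM and PR5 33.4 RPKM, each below every F1 replicate. How many of all genes lay below every F1 replicate in F8 was not counted. Relative to the mean of the parents, taken from log2 values as above, these 4 totals were lower. The log2 differences were -3.65, -3.33, -4.17 and -2.82. Thus 4 of 4 were at least 2-fold lower, against 3.07% of 9579 genes (10.1% in either direction and 7.04% higher). A. suecica did not share this for PR1 and BG3, whereas its PR2 and PR5 totals were also low against the mean of the parents. It had 434 RPKM for PR1, within the F1 range, and 784 RPKM for BG3, above every F1 and A. thaliana replicate and below every A. arenosa replicate. Its PR2 total was 75.5 RPKM, and its PR5 total of 20.8 RPKM was below every other library. The log2 differences from the mean of the parents were -0.25 for PR1, -0.10 for BG3, -1.58 for PR2 and -3.48 for PR5, with 2 of 4 at least 2-fold lower, against 3.62% of 9915 genes (19.4% in either direction and 15.8% higher).

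The order of the members within a library thus differed among the allotetraploids. BG3 over PR2 was -0.19, 0.57 and 0.47 in the F1 replicates, 1.05 in F8 and 3.36 in A. suecica. PR1 over PR5 was 0.80, -0.46 and 0.72 in the F1 replicates, 0.27 in F8 and 4.32 in A. suecica, where it lay above the A. arenosa replicates. PR2 over PR5 was -0.47, -0.79 and 0.59 in the F1, -0.60 in F8 and 1.81 in A. suecica. With 1 library each, F8 and A. suecica allow no test of these differences.

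By group, the arithmetic mean of PR1 was 823 ± 560 RPKM (SD, n = 3) in A. arenosa. It was 422 ± 452 RPKM in the F1 and 404 ± 263 RPKM in A. thaliana. The ranges of neighbours in this order overlapped, and the F1 was not tested against either parent alone. PR2 stood at 663 ± 537 RPKM in A. thaliana, 229 ± 170 RPKM in the F1 and 73.5 ± 33.6 RPKM in A. arenosa. PR2 overlapped between A. thaliana and the F1 and between the F1 and A. arenosa. PR5 followed the same order, at 665 ± 499, 262 ± 240 and 57.4 ± 37.9 RPKM, with overlap between the same neighbours. BG3 had 1670 ± 547 RPKM in A. arenosa, 253 ± 158 RPKM in the F1 and 114 ± 89.0 RPKM in A. thaliana, and only the last pair of neighbours overlapped.

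Genes with the most similar pattern were ranked by Pearson r of log2(RPKM + 1) totals, as a description over libraries that share their scale. Over 11 libraries and among 9922 genes, PR2 was most like AT2G04400 (r = 0.956), AHP5 (0.955) and AT2G02810 (0.946), and PR5 stood at rank 9 (0.917). PR5 was most like AT3G48640 (0.970), AT2G04400 (0.946) and GLR2.7 (0.928), with PR2 at rank 6. PR1 was most like AT3G04210 (0.953), AT3G28940 (0.927) and QQT2 (0.919), and BG3 like BPS2 (0.967), AT4G34180 (0.965) and CRK5 (0.963). Between PR2 and its neighbour BG3, r was 0.07. Over the 6 parental libraries, where the split between species dominates, PRB1 was most like CDL1 (0.999), ACD11 (0.998) and AT5G42830 (0.998). BG1 was most like AT1G64360 (0.985), AT3G07760 (0.975) and AT4G30630 (0.974).

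Few other genes of salicylic acid synthesis, signalling and response passed between the parents. Of 35 genes listed, 30 were tested, none was higher in A. arenosa and 2 were lower, against 10.7% and 4.21% of all genes tested, with 5 at an unadjusted p below 0.05 in limma. The median log2 difference was 0.17, against 0.31 over all genes. Besides LURP1, the gene that was lower was ACD6, an ankyrin protein that promotes salicylic acid signalling, with 48.6 ± 28.9 RPKM in A. thaliana and 8.39 ± 2.32 RPKM in A. arenosa (log2 difference -2.18, limma, adjusted p = 0.0402). In the F1 alleles, 23 were tested, of which 4 were higher from A. arenosa and 2 from A. thaliana, against 8.47% and 4.42% of all genes tested. NDR1, a membrane protein needed for signalling by many resistance proteins, had mean levels of 7.98 (A. thaliana allele) and 27.7 RPKM (A. arenosa allele; log2 ratio 1.73, limma, adjusted p = 0.00533). WRKY18, EDS1 and the salicylic acid 3-hydroxylase gene AT4G10500 (log2 ratios 1.27, 1.25 and 1.13) were the other genes toward A. arenosa. NPR3, a salicylic acid receptor that restrains the response, had 14.2 and 5.81 RPKM (-1.15, limma, adjusted p = 0.00647), and ACD6 had -1.92. Neither the trans term nor the F1 total against the mean of the parents passed for any of 23 genes in limma, with 2 and 3 at an unadjusted p below 0.05.

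Only a part of each wider family reached the filter of 5 RPKM in the larger parent, as did 12741 of all 32308 genes kept. Of 20 other PR1-like genes, 1 reached the filter, and it passed in no comparison (in limma, an unadjusted p below 0.05 in the F1 alleles alone). Of 21 other thaumatin-like genes, 6 were tested between the parents. Of these, 2 were higher and 2 lower in A. arenosa, against 10.7% and 4.21% of all genes tested. OSM34, an osmotin-like relative of PR5, had 4.05 ± 3.66 RPKM in A. thaliana and 141 ± 22.2 RPKM in A. arenosa, a log2 difference of 5.16 (limma, adjusted p = 0.00230) opposite in sign to that of PR5. AT2G28790 was also higher (2.26), and AT5G24620 (-3.06) and PR5K (-2.08), a receptor kinase with a thaumatin-like domain, were lower. In the F1 alleles 2 of 4 passed, AT1G75800 (1.04) and AT2G28790 (1.02), both toward A. arenosa, as did 8.47% of all genes tested. In the F1 total 1 of 3 passed, AT4G36010, above the mean of the parents (1.75, limma, adjusted p = 0.0462), against 0.0913% of all genes tested.

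Of 43 other genes of glycosyl hydrolase family 17, 16 were tested between the parents. Of all genes tested there, 10.7% were higher and 4.21% lower in A. arenosa. AT4G17180 was higher in A. arenosa (2.60 ± 0.872 against 6.64 ± 0.768 RPKM, log2 difference 1.11, limma, adjusted p = 0.0250), and none was lower. In the F1, 16 were tested. AT5G58090 (log2 ratio -1.61) and AT2G27500 (-1.20) had a higher A. thaliana allele, and none a higher A. arenosa allele. Of all genes tested, 4.42% and 8.47% passed in these directions. The median log2 difference of the family was 0.46 for the parental comparison and -0.06 for the F1 allele ratio, against 0.31 and 0.05 over all genes. None of the 15 tested passed for the trans term or the F1 total in limma, with 4 and 6 at an unadjusted p below 0.05.

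Markers of leaf senescence were listed because plant age differed. The summed RPKM of 8 such genes was 86.6, 125 and 55.5 in A. thaliana replicates 1, 2 and 3, and 61.4, 33.4 and 31.3 in those of A. arenosa, with SAG12, the defining marker, at 0 in all of them. SAG13, also a stress-responsive gene, had 31.5, 65.6 and 6.71 RPKM in the A. thaliana replicates and 13.2, 3.38 and 1.86 RPKM in those of A. arenosa. Its lowest A. thaliana value fell in replicate 3, as those of the members and of NAC6, NAP, NYE1 and WRKY6 did. SEN1 went the other way, with 10.7, 18.0 and 24.9 RPKM in A. thaliana replicates 1, 2 and 3. SAG29 was near 0 in all of them and highest in replicate 3. The part of these markers in the values of the members was not tested.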

How the data were processed

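Messenger RNA was measured in rosette leaves of 5 groups. The deposited values are RPKM of transcripts (parents) and of alleles (allotetraploids), computed by the authors, per the file headers. Reads were placed on TAIR 9, per the submitters' processing notes. Neither the aligner nor the way alleles were told apart is stated there. Of low parental values, 4.48% to 26.2% were whole multiples of a commonest step (tolerance 0.02), so depth is unknown and no count test was run.

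Each gene was represented by 1 transcript, listed in all tables where possible and with the highest mean; 5 ribosomal RNA transcripts were left out. Values were compared as log2(RPKM + 1) with limma 3.58.1 in R 4.3.3 (trend), for genes at 5 RPKM or more in the larger parent or allele sum. Benjamini-Hochberg adjustment covered all genes, and a call needed an adjusted p below 0.05 and 2-fold. F1 alleles were tested on ratios within replicates, the trans term in 1 model of parents and ratios with separate spreads, and departures from the mean of the parents by the delta method. The mean of the parents averaged their back-transformed log2 means. Alternatives covered pseudocount, filter, scaling, trend, block and left-out replicates. In simulated data with 4-fold changes, 73% were recovered between the parents (9897 genes) and 83% between F1 alleles (9656 genes). The changes were set in genes above a minimum level, each with its own spread. These rates do not carry over to the members, whose replicates ranged more widely than those of most genes. Gene names and sequences are from RefSeq TAIR10.1, whose annotation gave its own coordinates; 31781 identifiers were found. Python 3.11.15 was used elsewhere.

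Members and lists were chosen with earlier results of these data known. Named genes are all called list genes up to 6 per comparison, and the 3 most similar genes per member. A gene in several lists is counted in each.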

Additional observations from a re-analysis of the deposited data

Results flagged for a closer look

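The log2 allele ratio of PR1, A. arenosa over A. thaliana, had opposite signs in the natural and the F8 allotetraploid, at 0.89 in A. suecica and -1.77 in F8. Each is 1 library, so the difference was not tested. The F1 replicates had -0.92, 1.29 and -3.01, a range that holds both values.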

How the results depend on the processing

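Each result was recomputed under other settings. Of 274 member values, 256 kept their direction and their side of the threshold, 5 gained and 5 lost the call, and 8 reversed. The number of members called between the parents was 2, and 1 when libraries were scaled to their summed RPKM without ribosomal RNA (BG3 4.13, adjusted p = 0.0567). It ranged from 1 to 4 with a replicate left out, being 4 without A. thaliana replicate 3 and 1 without any A. arenosa replicate. The number called for the trans term was 0, and ranged from 0 to 1 (PR2 without A. thaliana replicate 3). The F1 allele count stayed 3 throughout, but PR1 replaced PR5 without F1 replicate 2, and the count for totals stayed 0. The count of F8 and A. suecica values at least 2-fold stayed 13 of 16.

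Reversals came from leaving out a replicate. The F1 allele ratio of PR1 ranged from -1.96 to 0.19, the trans term of BG3 from -0.45 to 1.66, and the F1 total against the mean of the parents from -1.61 to 0.46 for PR2 and from -1.35 to 0.31 for PR5. For PR1 and BG3 the latter kept its sign but ranged from -1.99 to -0.02 and from -2.44 to -1.29. No cause was tested.

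With the replicate number as a block, 3 members passed between the parents, PR5 being added (-3.09, adjusted p = 0.0353), and 0 for the trans term and totals. Whether the numbers pair libraries differed by groups. Deviations of same-numbered libraries correlated at 0.01, -0.11 and 0.13 for A. thaliana with A. arenosa and at 0.54, -0.27 and 0.24 for A. thaliana with the F1. For A. arenosa with the F1 they correlated at 0.28, 0.31 and 0.30, all over 0.1, and each library correlated best with its own number. This is at most a weak hint from the data, since the labels give no meaning to the numbers. Differently numbered libraries also correlated, A. thaliana replicate 3 with F1 replicate 2 at 0.44 and A. thaliana replicate 2 with A. arenosa replicate 1 at 0.30. The block enters the trans term and the totals together with A. thaliana.

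Counts over all genes moved more. Between the parents 1895 genes passed, 2855 without a filter, and 1045 to 3052 with a replicate left out; under the scaling without ribosomal RNA 682 were higher. For F1 alleles 1318 passed, and 647 with a pseudocount of 5 RPKM. For the trans term 16 passed, 31 under the scaling without ribosomal RNA, 3 with the block and 5 to 495 with a replicate left out. The 3052 between the parents and the 495 for the trans term were both without A. thaliana replicate 3. For totals 9 passed, 2 to 21 under other pseudocounts, scalings or no trend, 255 with the block and 0 to 20 with a replicate left out. Depth is unknown, so the precision of low values such as the A. arenosa allele of PR2 cannot be given.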
